A study of Mus musculus with 3 samples.

Results

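CD45-low cells of the naive mouse brain were compared between the authors' CD11b-positive and CD11b-negative antibody gates. The authors' cell descriptions label each brain cell as low or high for CD45. Only CD45-low cells are also labelled as positive or negative for CD11b. The limits of these gates are not given in the sources used here. Of 16328 cells deposited in the series, 5208 were brain cells, and 3350 of these were kept. Their barcode stood in a single cell table. Their deposited hashtag count was at least 0.5 of all their tag counts other than antibody tags (the hashtag fraction). Among the kept cells 2893 were CD45-low, 2570 of them CD11b-positive and 323 CD11b-negative. The other 457 kept cells were CD45-high.

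Single-cell RNA was sequenced from the 3′ end together with a pool of 35 antibody tags. A total of 8 hashed samples, each marked with its own barcoded antibody, were pooled into 1 library, and 4 of them were naive brains. The brains came from female mice aged 2 to 3 months on a C57Bl/6 background, 2 samples labelled CCR2+/- and 2 labelled CCR2-/-, and each was 1 perfused and digested brain hemisphere enriched for immune cells on a percoll gradient. Every mouse therefore carried at least 1 altered Ccr2 allele, and there was no wild-type brain. The labels do not state whether the 2 samples of a genotype were different animals, so p-values measure the spread between these samples, which may be technical.

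CD11b is the alpha chain of complement receptor 3, a cell surface integrin of myeloid cells that binds complement-coated particles and pairs with the beta chain CD18. CD45 is a phosphatase on the surface of all leukocytes, and microglia, the resident macrophages of brain tissue, carry less of it than blood-derived leukocytes do. A CD45-low, CD11b-positive gate is therefore a usual way to collect microglia from brain suspensions, while cells of vessels and of the choroid plexus should carry neither protein.

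The gate read the antibody's barcode and not the RNA of the gene, so the RNA of Itgam (CD11b) and of Ptprc (CD45) could be compared with it. The 2 tags that set the gates are shown because every comparison rests on them, each as the 15 bases listed in the deposited tag table.
CD11b: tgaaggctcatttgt
CD45: tggctatggagcaga
The window around the start of Itgam, from 250 bases before to 50 after it, is shown beside that of Cldn5, a tight junction gene of brain vessels, because these genes mark the opposite sides of the gate. Both are RefSeq sequences of GRCm38.p6 on the plus strand, at chr7:128062390-128062689 for Itgam and chr16:18776597-18776896 for Cldn5. Capitals mark the letters GAGGAA on either strand, the core bound by PU.1, a transcription factor of the myeloid lineage.
Itgam: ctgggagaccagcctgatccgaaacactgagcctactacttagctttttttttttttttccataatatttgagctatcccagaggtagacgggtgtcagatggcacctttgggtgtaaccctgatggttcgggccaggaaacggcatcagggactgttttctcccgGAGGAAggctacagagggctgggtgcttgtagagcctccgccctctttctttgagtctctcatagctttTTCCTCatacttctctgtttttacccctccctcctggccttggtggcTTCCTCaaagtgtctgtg
Cldn5: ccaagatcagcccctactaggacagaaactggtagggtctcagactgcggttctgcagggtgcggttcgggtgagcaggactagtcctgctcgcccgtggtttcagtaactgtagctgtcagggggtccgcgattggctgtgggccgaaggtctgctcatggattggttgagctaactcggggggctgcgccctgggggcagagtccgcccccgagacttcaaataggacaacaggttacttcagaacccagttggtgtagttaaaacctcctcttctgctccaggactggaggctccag
The Itgam window held 3 matches and the Cldn5 window held none. Of 32851 RefSeq promoter windows 28.3% held a match. The counts of genes that follow take a gene as matched if any of its windows held one. They are thus not on the scale of that share. Among the 12 genes that rose most in the CD11b-positive gate, named below, 10 had a window and 4 of those held a match (Tbxas1, Ccl12, Havcr2 and Kcnk13). Among the 12 that fell most, 10 had a window and 2 held a match (Itih5 and Abcb1a). Of the genes with a window in the marker lists used below, 3 of 8 microglia genes and 4 of 8 endothelial genes held one. A match is a description of letters and says nothing about binding.

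CD11b-positive cells were the large majority of CD45-low cells in all samples. Their share was 88.5% ± 3.47 in CCR2+/- and 89.0% ± 1.76 in CCR2-/- brains (mean ± SD, n = 2 each). The CD11b-negative cells numbered 105 of 755 and 56 of 622 in the CCR2+/- samples, which is 13.9% (exact Clopper-Pearson 95% interval 11.5 to 16.6) and 9.003% (6.87 to 11.5). They numbered 72 of 590 and 90 of 926 in the CCR2-/- samples, which is 12.2% (9.67 to 15.1) and 9.72% (7.89 to 11.8). The genotypes overlapped, and these intervals cover counting error only.

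The gates differed in depth. The median raw UMI total per CD11b-positive cell was 3437.5, 7082.5, 6034 and 5020 in CCR2+/- replicates 1 and 2 and CCR2-/- replicates 1 and 2, against 6893, 7969, 6918.5 and 7184.5 per CD11b-negative cell. The CD11b-positive median was the lower one in each of the 4 samples, at a ratio of 0.740 ± 0.182 (SD, n = 4). An exact sign-flip test over 4 samples cannot reach 0.05. Where only cells with a hashtag fraction of at least 0.8 were kept, the ratio was 1.02, so the direction of this difference depends on that choice. Antibody tags per cell ran the other way, with a median of 1.36 ± 0.106 times as many in CD11b-positive cells, and this too turned, to 0.609, at the stricter hashtag fraction. The CD11b-positive gate mixed cells of unlike depth. In the authors' clusters described below, its median was 1539.5 raw UMIs in cluster 0 and 9950.5 in cluster 1. Cluster 0 held 46.1% of all CD11b-positive cells as reported and 36.6% at the stricter hashtag fraction. Within cluster 6 the CD11b-positive median was the higher one in all 4 samples. How far this mixture set the ratios was not tested.

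The authors deposited counts that had been corrected for the depth of the cell, and levels are given here as corrected counts per 10000 of the summed total of a gate in a sample. These totals ran from 3315297 to 5360441 in the CD11b-positive and from 401216 to 723005 in the CD11b-negative gate, so a level in the negative gate rests on fewer counts. In such sums fewer cells of a type and less RNA per cell cannot be told apart. Doublets were not called. A total of 1726 brain barcodes also stood in another table of the series, and those cells were left out.

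Itgam and Ptprc RNA followed the antibody gate. Itgam was found at 3.996, 4.66, 4.49 and 4.91 per 10000 in the CD11b-positive gate and at 0.526, 0.150, 0.402 and 0.443 in the CD11b-negative gate, in the sample order used above. The lowest CD11b-positive sample lay well above the highest CD11b-negative one. The log2 difference was 3.69 ± 0.28 (SE; adjusted p = 1.47e-05, limma with the sample as a block and Benjamini-Hochberg adjustment over 13323 genes), an 11.1-fold ratio of the summed counts.

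Ptprc separated the gates as well, although both hold CD45-low cells. Its level was 6.35, 5.95, 6.33 and 6.69 in CD11b-positive and 1.12, 0.673, 1.55 and 2.06 in CD11b-negative sums, again without overlap. The log2 difference was 2.34 ± 0.21 (adjusted p = 3.41e-05), a 4.55-fold ratio. This ratio joins clusters of unlike Ptprc level, which are given below. Against the CD45 gate itself, Ptprc was at 5.57, 5.43, 5.70 and 6.20 in all CD45-low cells and at 8.96, 7.46, 10.4 and 11.1 in CD45-high cells, where every sample was higher. Itgam ran the opposite way across the CD45 gate, at 3.48 to 4.44 in CD45-low and 1.12 to 2.99 in CD45-high cells.

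Ccr2, the gene altered in these mice, was low in both gates. It was at 0.195 and 0.184 in the CCR2+/- and 0.160 and 0.116 in the CCR2-/- CD11b-positive sums, and at 0.0553, 0.0997, 0.0201 and 0.0791 in the CD11b-negative sums. The gates did not overlap, but the CD11b-negative values rest on 14 counts in all. Its log2 difference was 1.47 ± 0.44 (limma adjusted p = 0.0222), and this call was lost with the hashtag fraction of 0.8, with thinned cells, without CCR2+/- replicate 1 and without CCR2-/- replicate 1. Whether the 3′ end that was counted lies in the altered part of the allele is not given in the sources used here, so this level does not check the genotype labels.

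Cx3cr1 and Cxcl10 were described as genes of the study's own question. Cx3cr1, the fractalkine receptor that microglia carry at high levels, was at 21.8, 27.2, 23.7 and 26.1 in the CD11b-positive and 1.09, 0.399, 1.17 and 0.870 in the CD11b-negative gate, a 26.8-fold ratio (log2 4.91 ± 0.26). Cxcl10, a chemokine that attracts activated T cells, was at 0.922, 1.78, 1.12 and 1.54 against 0.0553, 0.0498, 0.0402 and 0.0950, with a 21.8-fold ratio (log2 4.40 ± 0.24). Both passed the limma test and neither overlapped between the gates.

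**Figure D1:**
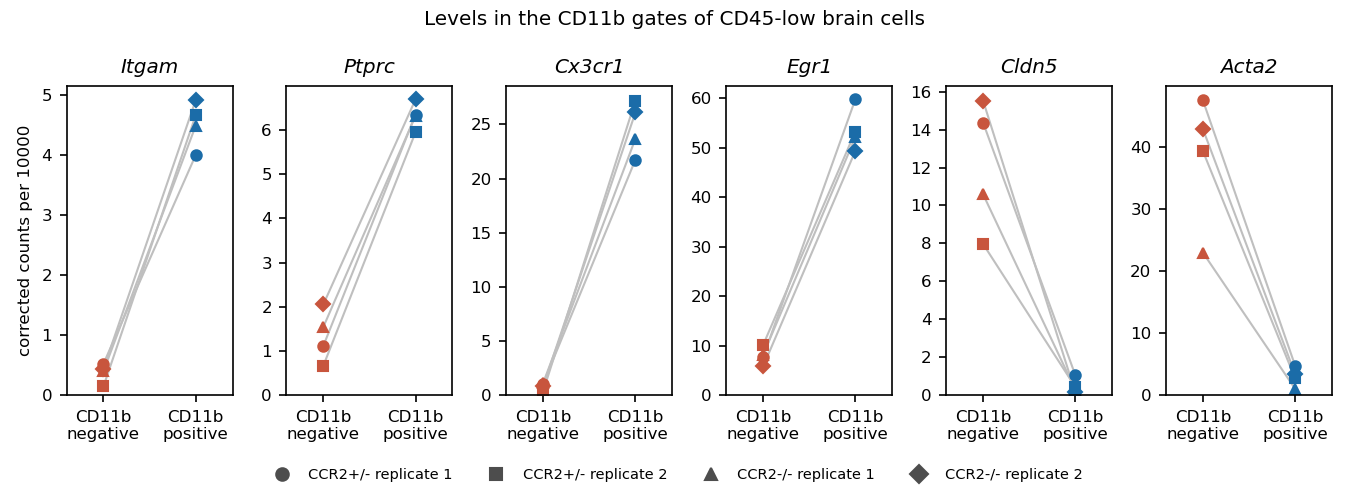
Levels of 6 genes in the CD11b-negative (red) and CD11b-positive (blue) gates of CD45-low brain cells, as corrected counts per 10000 (vertical axes, from 0), with 1 symbol per hashed sample and lines joining the gates of a sample. Itgam, Ptprc, Cx3cr1 and Egr1 were higher in the CD11b-positive gate in all 4 samples, and Cldn5 and Acta2 were lower in all 4.

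The authors' clusters split along the gate. Their deposited numbers, 0 to 8, were used as they stand, and a cluster was named only if it had at least 20 cells, at least 3 markers of a cell type raised 2-fold with 1 or more among its top 10 genes, no marker of the next best type among those 10, and leading genes that were not all mitochondrial. Cluster 1 was microglia-like, with all 12 microglia markers raised at least 2-fold over the other clusters and Cst3, Slc2a5, C1qa and Trem2 among its top genes. Cluster 6 was endothelial-like, with 10 of 10 endothelial markers raised. It also had 6 pericyte and smooth muscle markers raised, none of them among its top 10 genes, so it may hold some mural cells. Cluster 7 was smooth muscle-like (Acta2, Tagln, Myh11), cluster 8 choroid plexus epithelium-like (Ttr, Enpp2, Folr1) and cluster 3 border macrophage-like (Mrc1, Pf4, Ms4a7). In cluster 7 only 5 of the 9 markers in the joint list of pericytes and smooth muscle were raised. Rgs5, a member of that list found in pericytes, was at 0.297 in CD11b-positive cells of cluster 7 and at 14.7 in those of cluster 6. Clusters 0, 2, 4 and 5 stayed unnamed. Cluster 0 was led by mitochondrial genes (mt-Nd2, mt-Nd1 and mt-Nd4), followed by Xist and the neutrophil genes S100a9, S100a8 and Retnlg. Cluster 4 had markers of 2 types among its top genes, and clusters 2 and 5 had 1 and 9 cells.

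All 1190 microglia-like cells of cluster 1 lay in the CD11b-positive gate. They made up 46.4% ± 5.07 of it (SD, n = 4; 40.3% to 52.7% by sample), and 0 of 1190 lay in the negative gate, which allows a share of up to 0.252%. Cluster 0 made up nearly as much of the CD11b-positive gate, 45.8% ± 3.83, and 13.8% ± 5.06 of the CD11b-negative gate. Together these clusters held 2374 CD11b-positive and 46 CD11b-negative cells.

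The CD11b-negative gate was mostly endothelial-like. Cluster 6 held 69.5%, 75.0%, 61.1% and 53.3% of its cells in the 4 samples (mean 64.7% ± 9.51), against 5.85%, 3.89%, 3.28% and 2.03% of CD11b-positive cells. Every CD11b-negative share exceeded every CD11b-positive share many times over. Cluster 7, of mural cells, held 9.26% ± 2.71 of the negative and 0.591% ± 0.310 of the positive gate. Clusters 6, 7 and 8 together held 245 of 323 CD11b-negative cells (75.9%) and 132 of 2570 CD11b-positive cells (5.14%).

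Of the smaller clusters, 3, 4 and 8 had cells in both gates. Border macrophage-like cluster 3 had 49 CD11b-positive and 6 CD11b-negative cells, and choroid plexus-like cluster 8 had 22 and 7. Cluster 4, led by haemoglobin genes and by the cytotoxic cell genes Gzma and Nkg7, had 14 and 17. Cluster 5, led by the B cell genes Ly6d, Vpreb3 and Cd79a, had 9 kept cells, all of them CD11b-negative. Among all deposited CD45-low cells, 4 of the 14 in cluster 5 were CD11b-positive.

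**Figure D2:**
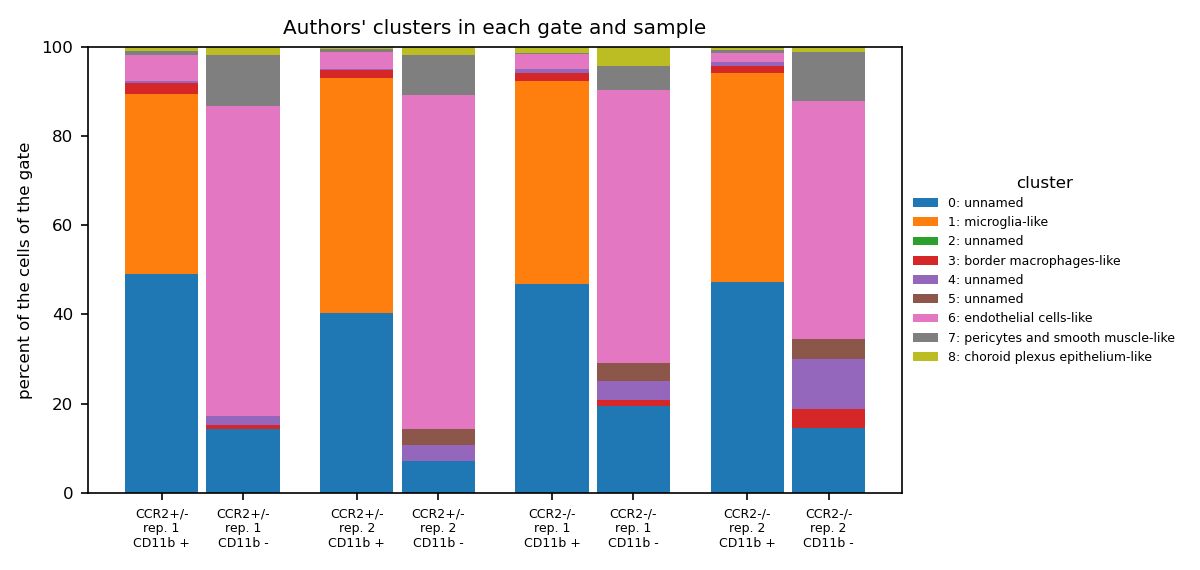
Share of the authors' clusters in each gate of each hashed sample, as percent of the cells of the gate (vertical axis, 0 to 100), with CD11b-positive (+) and CD11b-negative (-) bars side by side. Clusters 0 and 1 fill most of every CD11b-positive bar, and the endothelial-like cluster 6 fills 53.3% to 75.0% of every CD11b-negative bar.

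Itgam RNA was uneven among the CD11b-positive clusters. Among CD11b-positive cells it was at 5.56 in microglia-like cluster 1, 4.02 in cluster 0, 1.09 in border macrophage-like cluster 3 and 0.255 in endothelial-like cluster 6. No Itgam count was found in either gate of clusters 7 and 8, which together held 38 CD11b-positive cells. CD11b-positive cells of clusters 6, 7 and 8 thus carried the antibody label with little or no Itgam RNA. Ptprc was uneven as well, at 11.4 in CD11b-positive cells of cluster 0, 3.75 in cluster 1, 4.69 in cluster 3 and 0.539 in cluster 6. Cluster 0, whose corrected counts rest on few raw UMIs, gave 6823 of the 10489 Ptprc counts of the CD11b-positive gate.

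Across the whole table, 6958 of 13323 genes passed the threshold between the gates (52.2%), 3122 of them higher (23.4%) and 3836 lower (28.8%) in CD11b-positive cells. The level ranges of the 4 samples did not overlap between the gates for 51% of the genes. The median log2 difference of all genes was -0.05. With median-of-ratios scaling this median was 0.19 and 4019 genes were higher and 3113 lower, and with quantile normalization it was 0.17 with 3735 higher and 3306 lower. The share of higher genes among those called was 44.9% as reported and 56.4% with median-of-ratios scaling, so the balance of directions depends on the scaling, while the genes and lists described here are read against that shift. When every cell was thinned to 1000 corrected counts, 9519 genes could be tested, with 1698 higher and 1314 lower.

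The 12 genes whose rise was largest by the 95% bound of the log2 difference were close to absent from the CD11b-negative gate. Gpr84, a receptor for medium-chain fatty acids, was at 1.69, 2.83, 3.32 and 3.98 per 10000 in CD11b-positive sums and at 0, 0.0249, 0.0201 and 0 in CD11b-negative sums. All 4 pairs differed, but the negative side held 2 counts, so the 340-fold ratio has a counting interval of 94.2 to 2811. Clec4a2, an inhibitory C-type lectin receptor, was at 0.635, 0.699, 0.649 and 0.8003 against 0 in every CD11b-negative sum, which is at least 53.0-fold higher (3 counts over the gate). Kcnk13, a potassium channel that sets the resting potential of microglia, was also at 0 in every CD11b-negative sum and at least 30.3-fold higher. Neither gene could be placed more closely than that bound.

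Ccl12, a mouse ligand of CCR2, was at 2.75, 3.84, 4.16 and 3.44 in the CD11b-positive gate and at 0.0692, 0, 0.0201 and 0 in the negative gate, a 131-fold ratio. Slc2a5, the fructose transporter GLUT5, was at 1.29 to 1.61 against 0 to 0.0249. Havcr2 (TIM-3, a checkpoint receptor) was at 0.860 to 1.26 and Tbxas1 (thromboxane synthase) at 1.74 to 1.84, and each had at most 2 counts in the whole CD11b-negative gate. The remaining 5 were Syngr1, a vesicle membrane protein, Ptpro, a receptor phosphatase, the transcription factors Sall3 and Mlxipl, and Csmd3. These 5 lay between 1.00 and 2.18 in the CD11b-positive gate. They had between 2 and 6 counts in the negative gate, where the 4 counts of Sall3, the 3 of Mlxipl and the 2 of Ptpro all came from CCR2-/- replicate 1.

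The 12 genes whose fall was largest by the same bound included Cldn5, Slco1a4, Abcb1a and Vwf, which are known from brain endothelium. Cldn5, the claudin of blood-brain barrier tight junctions, was at 1.08, 0.447, 0.302 and 0.166 in CD11b-positive and 14.4, 7.98, 10.6 and 15.5 in CD11b-negative sums. The negative gate was higher in every sample, by 26.3-fold in the summed counts (log2 -4.87 ± 0.38). Slco1a4, an organic anion transporter of the barrier, was at 0.287, 0.117, 0.115 and 0.0672 against 4.98, 3.24, 2.79 and 3.61, a 26.7-fold ratio. Abcb1a, the drug efflux pump P-glycoprotein, was at 0.0664 to 0.307 against 2.58 to 4.02, a 22.0-fold ratio.

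Vwf, the clotting factor stored by endothelial cells, was at 0.0543 to 0.290 in the CD11b-positive and 1.79 to 4.32 in the CD11b-negative gate. Igfbp5, a binding protein for insulin-like growth factors, differed 39.0-fold, but its level in CD11b-negative sums ranged from 2.45 to 37.7 with CCR2+/- replicate 2 highest. Foxd1, a forkhead transcription factor of stromal cells, differed 32.2-fold, and Gjb2, the gap junction protein connexin 26, differed 51.6-fold with 18 counts on the positive side. The other 5 were Itih5, Ptn (pleiotrophin, a secreted growth factor), Hs3st1 (a heparan sulfate sulfotransferase), Tmem252 and Nov (a secreted matricellular protein), with ratios of 23.7 to 35.4. None of the 12 overlapped between the gates, which follows largely from how they were picked, and 51% of all genes did not overlap either.

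**Figure D3:**
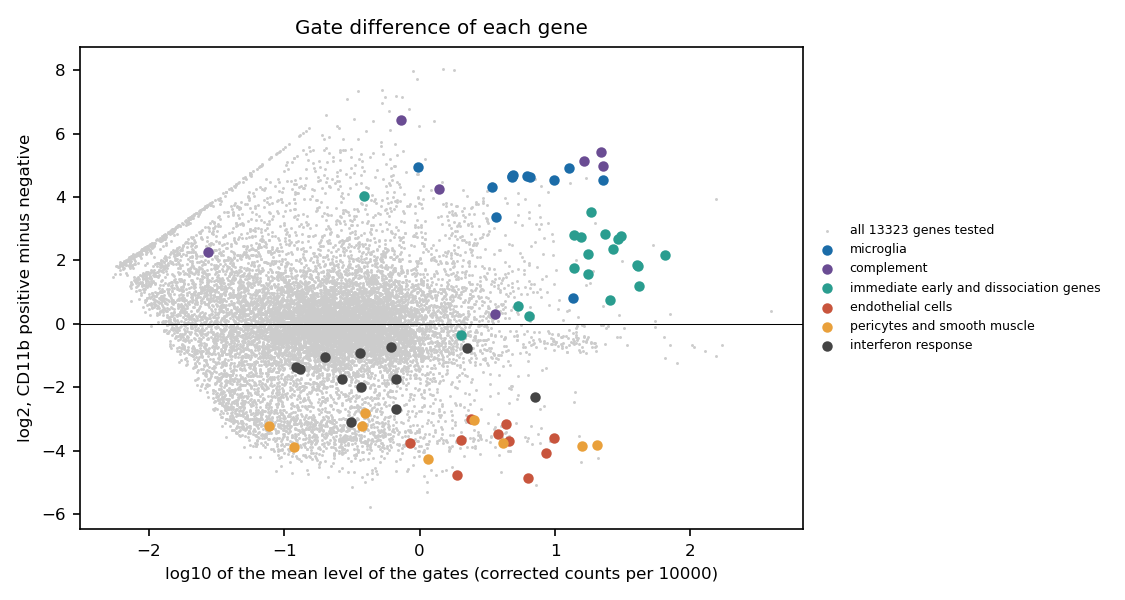
Log2 difference between the gates (vertical axis, CD11b positive minus negative) against log10 of the mean level of both gates in corrected counts per 10000 (horizontal axis) for the 13323 genes tested, with 6 gene lists in colour. Microglia and complement genes lie mostly above a log2 of 3, and all endothelial and mural genes lie below -2.

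Cell type markers gave the same division in lists, which are described by counts and medians beside those of all genes. Of all genes 23.4% were higher and 28.8% lower in CD11b-positive cells, at a median log2 difference of -0.05. All 12 microglia markers rose, with a median log2 difference of 4.64. P2ry12, the purine receptor of resting microglia, was at 10.9, 13.8, 11.8 and 13.4 in the CD11b-positive and 0.553, 0.274, 0.583 and 0.681 in the CD11b-negative gate, with no overlap. The smallest rise of the 12 was that of Sparc, a matrix protein that vessel cells make too, at 14.3 to 20.4 against 9.11 to 10.7 (log2 0.83 ± 0.12).

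All 10 endothelial and all 9 pericyte and smooth muscle markers fell, with medians of -3.69 and -3.77. Flt1, a receptor for vascular endothelial growth factor, was at 2.32, 2.04, 0.772 and 1.24 against 15.2, 17.6, 19.0 and 19.9. Acta2, the actin of smooth muscle, was at 4.79, 2.73, 1.04 and 3.45 against 47.5, 39.4, 22.997 and 42.9, and the gates did not overlap for either gene. Of 7 fibroblast markers 5 fell, at a median of -3.36. Dcn (decorin) and Col1a2 (a collagen I chain) were among them, and CCR2+/- replicate 2 was highest for Dcn, at 23.9 in its CD11b-negative sum.

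Choroid plexus markers fell for 5 of 7 at a median of -1.16, but this group was not stable. Ttr, the thyroid hormone carrier secreted by the choroid plexus, was at 49.4, 31.3, 69.7 and 36.1 in CD11b-positive and 94.3, 131, 171 and 58.1 in CD11b-negative sums, and the gates overlapped. Its log2 difference was -1.24 ± 0.22 (limma adjusted p = 0.00158). At a hashtag fraction of at least 0.8 it was 0.09 (adjusted p = 0.902). Ttr was also counted outside the choroid plexus-like cluster, at 23.3 in CD11b-positive and 67.9 in CD11b-negative cells of cluster 0 and at 4.01 in microglia-like cells, and the part of free RNA in this was not tested.

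Markers of other leukocytes moved less. Of 8 border macrophage markers 6 rose (median 2.50), including Mrc1, the mannose receptor, at 0.145 to 0.455 against 0 to 0.0498, and Cbr2 fell. Of 6 neutrophil markers tested 5 rose. S100a8, a calcium-binding protein of neutrophils, was at 4.65, 6.23, 5.14 and 4.89 against 2.21, 2.37, 3.08 and 2.66 (log2 1.02 ± 0.12), and within CD11b-positive cells it was at 10.9 in cluster 0 and 1.33 in the microglia-like cluster. Csf3r, the receptor for granulocyte colony-stimulating factor, which microglia also express, differed more (log2 2.79 ± 0.18).

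Of 6 B cell markers 3 fell, and of 6 T cell and 6 NK cell markers none passed the test. Ebf1, an early B cell factor that mural cells also express, was at 0.211 to 0.565 against 4.29 to 4.80, whereas Cd79a, part of the B cell receptor, was at 0.281 to 0.341 against 0.304 to 1.83 with overlap. All 9 cells of cluster 5 were in the negative gate, and CCR2+/- replicate 1 had none of them. Of 5 red cell markers none passed. Their summed level ran from 20.7 to 86.6 in CD11b-positive and from 0.934 to 123 in CD11b-negative sums, a spread within each gate larger than the difference between them.

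Markers of brain parenchymal cells were sparse. Of 7 astrocyte markers tested 1 rose and 3 fell, of 6 oligodendrocyte markers 1 rose and 2 fell, and of 6 ependymal markers 1 fell. Only 3 of 7 neuronal markers could be tested, and 2 of them fell. Among monocyte lists 2 of 6 Ly6c-high markers rose and 1 fell, and 2 of 5 Ly6c-low markers fell. Of 4 dendritic cell markers 3 rose and 1 fell, of 3 platelet markers 1 rose, and the 1 mast cell marker tested fell. Lists with so few members tested give counts and no pattern.

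**Figure D4:**
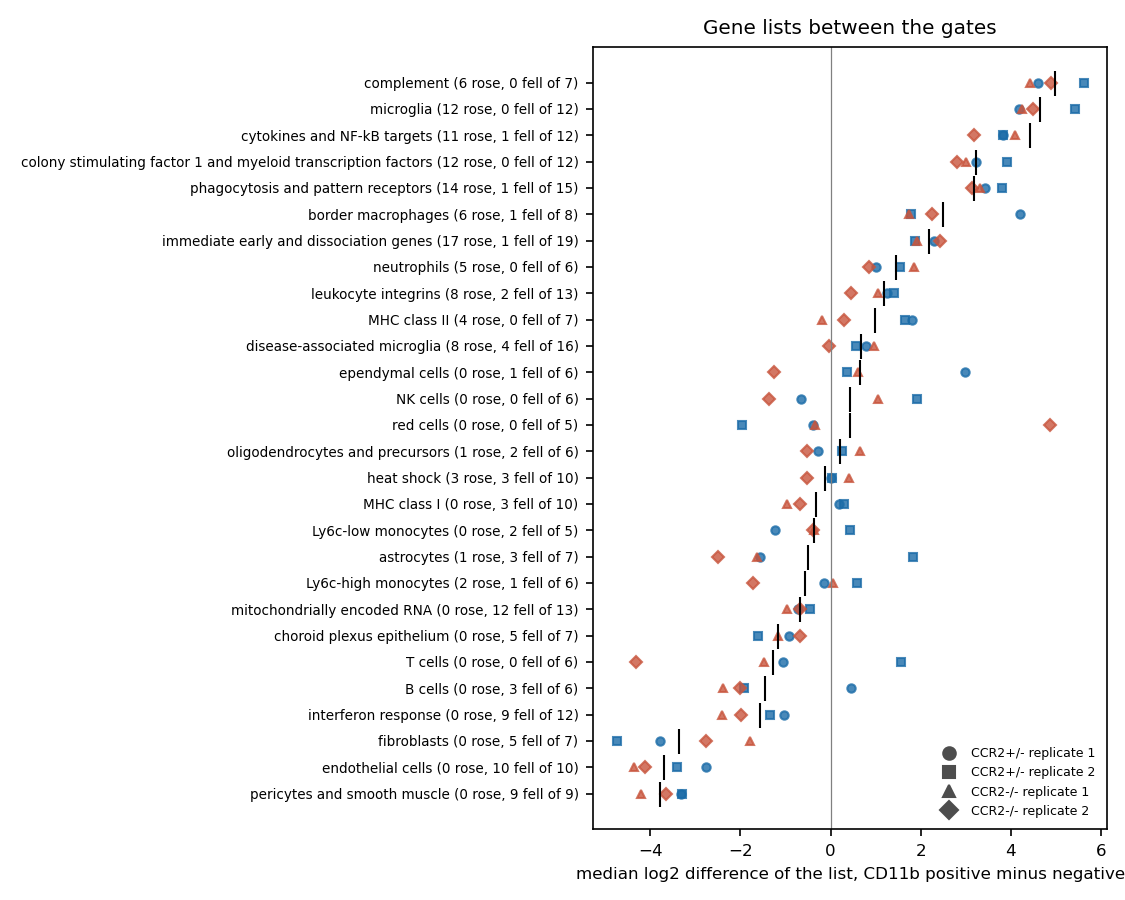
Median log2 difference between the gates (horizontal axis, CD11b positive minus negative) of each gene list with at least 5 members tested, with 1 symbol per hashed sample, the fitted median as a black tick and the counts of members that rose or fell in the labels. The complement list lies farthest to the right in all 4 samples, and the endothelial and mural lists are among the 3 farthest to the left in all 4.

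The partners of CD11b and other integrins did not all move with it. Of 13 integrin genes tested 8 rose and 2 fell, at a median of 1.18. Among all genes 23.4% were higher and 28.8% lower. Itgb2, the CD18 chain that pairs with CD11b, was at 1.84, 1.86, 1.86 and 1.95 against 0.443, 0.174, 0.442 and 0.617 (log2 2.29 ± 0.25). Itgb5, a beta chain that pairs with the alpha V chain, was at 5.68 to 7.17 against 0.623 to 1.01 (log2 3.04 ± 0.15). Itgb1, the beta chain of most matrix-binding integrins, fell, at 1.75 to 1.93 against 3.44 to 5.27 (log2 -1.31 ± 0.12).

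Genes of the myeloid programme rose together. All 12 genes of the list of colony stimulating factor 1 signalling and myeloid transcription factors rose, at a median of 3.23. Csf1r, the receptor that microglia need to survive, was at 16.9, 20.1, 18.6 and 20.02 against 1.06, 0.474, 1.03 and 0.839. Irf8, an interferon regulatory factor of the myeloid lineage, rose by a log2 of 3.26 ± 0.25. Mef2c and Cebpb, which vessel cells express too, rose by 1.10 ± 0.15 and 1.35 ± 0.10.

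Of 15 phagocytosis and pattern receptor genes 14 rose, at a median of 3.17. Trem2, a lipid receptor of microglia, was at 10.9, 13.03, 11.95 and 12.2 against 0.567, 0.249, 0.623 and 0.538, and its adaptor Tyrobp was at 14.5 to 17.3 against 1.12 to 2.48. Mertk and Axl, receptor kinases for dying cells, parted: Mertk was at 5.47 to 6.32 against 0.474 to 0.719 and rose (log2 3.17 ± 0.12), and Axl fell (-1.42 ± 0.27), a call lost with thinned cells. Of 7 complement genes 6 rose, at a median of 4.98. C1qa, a chain of the first complement component, was at 39.3, 46.6, 40.1 and 46.1 against 1.24, 0.498, 1.33 and 1.14, a 39.4-fold ratio.

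Cytokine and NF-kB target genes rose for 11 of 12 members, at a median of 4.43 over the fitted differences. The median within each sample was lower, at 3.83, 3.82, 4.08 and 3.17. Ccl3 and Ccl4, chemokines that microglia release on activation, were at 16.7, 14.3, 12.9 and 10.8 against 0.636, 0.249, 0.523 and 1.22 for Ccl3, and at 22.4, 24.2, 29.2 and 23.2 against 0.996, 0.698, 0.824 and 2.72 for Ccl4. Il1a, a cytokine of the interleukin 1 family, was at 4.08, 5.60, 7.82 and 8.45 against 0.443, 0.150, 0.422 and 0.222. Ptgs2, the inducible cyclooxygenase, fell (log2 -2.30 ± 0.30).

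Immediate early genes, which respond within minutes to stimuli and to tissue dissociation, rose for 17 of 19 members at a median of 2.18. Egr1, a zinc finger transcription factor, was at 59.8, 53.3, 52.1 and 49.4 against 7.76, 10.2, 8.20 and 5.86, and Jun was at 113, 114, 98.3 and 99.1 against 20.2, 31.0, 26.2 and 18.3. Fos differed less, at 62.0, 59.95, 55.1 and 54.0 against 21.7, 33.2, 21.8 and 24.5. Nr4a1, an orphan nuclear receptor, was the member that fell (-0.36 ± 0.11), a call lost with median-of-ratios scaling, with thinned cells, without the sample block and without any of 3 samples (CCR2+/- replicate 2 and CCR2-/- replicates 1 and 2). By cluster the order of these genes was not the same: in CD11b-positive cells Egr1 was at 83.1 in cluster 0 and 41.0 in microglia-like cluster 1, and Fos was at 34.6 and 77.0.

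Interferon response genes ran the other way. Of 12 members 9 fell and none rose, at a median of -1.57. Ifitm3, a membrane protein that blocks virus entry and that vessel cells express at rest, was at 2.95, 2.12, 2.17 and 2.34 against 12.6, 8.62, 12.8 and 13.6 (log2 -2.30 ± 0.12). Isg15 and Rsad2, both induced by type I interferon, were at 0.231 to 0.382 against 0.705 to 1.55 and at 0.129 to 0.195 against 0.498 to 1.59.

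Of 10 MHC class I genes 3 fell and none rose (median -0.31), beside 28.8% lower and 23.4% higher among all genes, so the share that fell was near that background. Of 7 MHC class II genes 4 rose and none fell (median 0.99). The class II gene H2-Ab1 was at 2.81, 2.58, 2.81 and 1.80 against 0.871, 0.573, 3.20 and 1.46, where CCR2-/- replicate 1 was higher in the negative gate. Its adjusted p was 0.0400 by limma, and the call was lost without CCR2+/- replicate 1, without CCR2+/- replicate 2, at the stricter hashtag fraction, with thinned cells and without the sample block. Disease-associated microglia genes were mixed, with 8 of 16 higher and 4 lower at a median of 0.67. Heat shock genes were split too, with 3 of 10 higher and 3 lower, again near the shares of all genes, at a median of -0.13 that turned to 0.14 with median-of-ratios scaling.

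Mitochondrially encoded RNA was lower in the CD11b-positive gate for 12 of 13 genes, at a median of -0.68. It took 6.67% of CD11b-positive and 11.4% of CD11b-negative corrected counts. These sums include CD11b-negative cells of cluster 0, where it took 56.0%. The medians per cell differed less, at a ratio of 0.821 ± 0.151 (SD, n = 4; 0.679 to 1.00 by sample). In CCR2-/- replicate 2 they were 3.72% and 3.71%. The gene mt-Atp6, a subunit of ATP synthase, was at 113, 77.6, 110 and 103 against 226, 128, 270 and 206. Xist, the RNA that coats the inactive X chromosome of female cells and stays in the nucleus, was at 27.8 to 30.2 against 7.15 to 11.4, and Neat1, another nuclear RNA, was at 11.96 to 15.4 against 2.02 to 4.08. Among CD11b-positive cells Xist was at 60.6 in cluster 0 and at 11.7 in microglia-like cluster 1, which is near the 9.32 of all CD11b-negative cells.

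Mitochondrial RNA was compared within clusters 0 and 6, and it differed in cluster 0. This cluster had a median of 1539.5 raw UMIs in its 1184 CD11b-positive cells and 2105 in its 46 CD11b-negative cells, against 9950.5 in microglia-like cluster 1. Mitochondrial RNA took 14.3%, 12%, 15.3% and 14.1% of its CD11b-positive counts and 52.0%, 40.5%, 61.6% and 58.9% of its CD11b-negative counts in the 4 samples. Every CD11b-negative value was the higher, though CCR2+/- replicate 2 had 4 such cells. The median number of genes per cell of cluster 0 was 764 in the CD11b-positive and 458 in the CD11b-negative gate. In cluster 6 mitochondrial RNA took 3.87% and 4.38% of the summed counts.

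Several marker lists differed in level between the 2 sides of cluster 0, and both sides carried microglia and neutrophil genes. Microglia markers summed to 66.4 per 10000 in its CD11b-positive and 21.6 in its CD11b-negative cells, against 267 in cluster 1. Itgam was at 4.02 and 1.47 and Cx3cr1 at 12.4 and 2.76. Mural markers summed to 0.589 and 14.7, with the smooth muscle myosin Myh11 at 0.0519 and 4.31. Neutrophil markers summed to 38.1 and 18.4, against 6.54 in cluster 1. Endothelial markers were near 0 on both sides, at 0.630 and 0.811. The cells of this cluster are shallow and their corrected counts rest on few raw UMIs, so these levels are a description, and 4 to 15 CD11b-negative cells per sample were too few for a fit.

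The endothelial-like cluster 6 was the one cluster with at least 15 cells in each gate of every sample, a minimum chosen after the data were seen. It held 38, 22, 17 and 17 CD11b-positive and 73, 42, 44 and 48 CD11b-negative cells. No gene passed the limma threshold of 0.05 between its gates, 0 of 9485 tested (0%), with 588 at an unadjusted p under 0.05. Without CCR2-/- replicate 1, 30 genes passed. On data simulated at this size the fit recovered 44% of 2-fold and 92% of 4-fold changes. The simulation used a spread set beforehand and changed only the more abundant genes, so larger changes could be missed too. Gjb2, for example, was lower in CD11b-positive cells of all 4 samples (log2 -2.42) and did not pass (limma adjusted p = 0.120).

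Its gates differed in antibody tags in every sample. The median number of tags per cell was 4961, 4731.5, 4380 and 9920 in CD11b-positive and 1413, 1140.5, 2993 and 2430.5 in CD11b-negative cells. The ratio was 3.301 ± 1.26 (SD, n = 4; 1.46 to 4.15), and the ranges did not overlap. Raw UMIs differed less, at 13595, 9156.5, 8724 and 11932 against 7501, 8117.5, 8499.5 and 7527, a ratio of 1.39 ± 0.373 that was above 1 in all 4 samples. More tags in CD11b-positive cells were not particular to this cluster. Their median was also the higher one in all 4 samples of clusters 0, 4, 7 and 8, in places from 1 cell. The ratio in cluster 0 was 1.51 ± 0.258 (SD, n = 4). In cluster 3 the median was lower in CD11b-positive cells of CCR2-/- replicate 1, at 5335 against 5894. Whether the greater number of tags set the CD11b call was not tested, nor was the part of the CD11b tag itself in these totals.

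The RNA of the gated proteins overlapped between the gates of cluster 6. Itgam was at 0.104, 0.119, 0.669 and 0.386 in CD11b-positive and 0.437, 0.0327, 0.292 and 0.353 in CD11b-negative sums, which rest on 18 and 44 counts and overlap. Ptprc was at 0.452, 0.476, 0.919 and 0.463 against 0.914, 0.294, 0.746 and 0.647, again with overlap. The log2 difference of Itgam was 0.16 ± 0.50 and that of Ptprc -0.12 ± 0.31 (limma adjusted p = 0.979 and 0.973), with 95% intervals of -0.92 to 1.24 and -0.80 to 0.56. The whole microglia list summed to 19.6 to 27.2 against 15.6 to 20.3, with 0 of 11 members tested passing and a median of 0.01.

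The lists of vessel genes did not run one way in cluster 6. Of 10 endothelial markers 6 were at a higher level in its CD11b-positive cells, with a median log2 difference of 0.15, and 3 had an unadjusted p under 0.05. Of 9 pericyte and smooth muscle markers 6 were higher, with a median of 0.80, and 6 had an unadjusted p under 0.05. The summed level of the mural list was 50.1, 17.1, 16.6 and 13.9 against 20.9, 11.3, 12.1 and 11.1, higher in CD11b-positive cells of all 4 samples, while the endothelial sums overlapped. No member of either list passed the adjusted threshold.

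Among single genes of cluster 6, the smallest adjusted p was 0.120. It belonged among others to Vwf, at 3.76, 1.13, 1.17 and 2.24 in CD11b-positive and 6.20, 2.35, 2.99 and 6.06 in CD11b-negative sums, and to Slco1a4, at 3.58, 2.20, 2.51 and 1.78 against 7.11, 4.22, 4.45 and 6.67. Cldn5 was at 14.97, 9.22, 7.10 and 6.25 against 20.6, 10.5, 17.1 and 28.8 (adjusted p = 0.446 by limma). Each of these was lower in the CD11b-positive cells of all 4 samples, and none passed. Rgs5, a regulator of G protein signalling found in pericytes and some endothelium, was at 21.6, 9.10, 12.04 and 8.88 against 7.85, 5.20, 6.62 and 6.998. Esm1, a proteoglycan of endothelial tip cells, was at 4.73, 11.9, 7.36 and 22.2 against 2.76, 4.19, 6.46 and 5.06. Both were higher in all 4 samples without passing (limma adjusted p = 0.225 and 0.334). Kdr, a receptor for vascular endothelial growth factor, was at 13.2, 28.1, 13.04 and 28.9 against 7.27, 11.8, 13.2 and 16.2, higher in 3 of 4 samples (log2 0.73 ± 0.18, limma adjusted p = 0.446). The haemoglobin gene Hbb-bs was at 68.2 in CD11b-positive cells of CCR2+/- replicate 1 and at 0.909 or below in the 7 other sums.

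**Figure D5:**
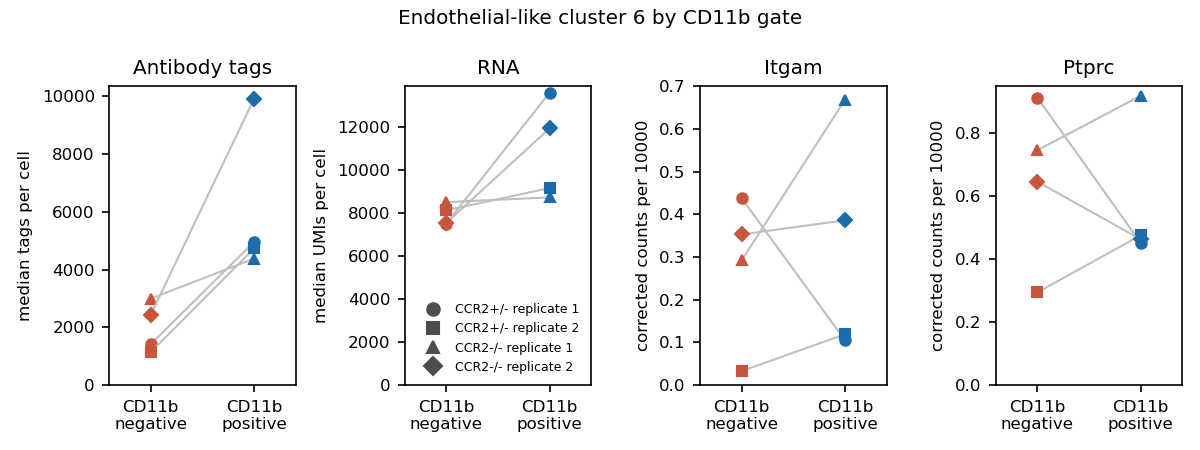
Endothelial-like cluster 6 by CD11b gate (red negative, blue positive): median antibody tags per cell, median raw UMIs per cell, and the levels of Itgam and Ptprc in corrected counts per 10000 (vertical axes, from 0), with 1 symbol per hashed sample joined by lines. Antibody tags were higher in CD11b-positive cells of all 4 samples, while Itgam and Ptprc overlapped between the gates.

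Clusters 7 and 8 were compared by level only. In mural cluster 7 Acta2 was at 339 in the 16 CD11b-positive and 338 in the 31 CD11b-negative cells, and Myh11 was at 70.2 and 65.2. In choroid plexus-like cluster 8 Ttr was at 2983 and 3358 and Enpp2, a lysophospholipase secreted by that tissue, at 289 and 276. In border macrophage-like cluster 3 the 6 CD11b-negative cells had no Mrc1 count, against a level of 8.87 in the 49 CD11b-positive cells, and their median depth was 17075 against 8046 UMIs. Clusters 7 and 8 had cells in both gates of all 4 samples, down to 1 cell in a gate of a sample, and cluster 3 lacked CD11b-negative cells in CCR2+/- replicate 2. Differences between the gates within these clusters were not tested.

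The difference between the gates was set against the genotype. No gene passed the limma test of the interaction of gate and genotype, 0 of 13323 (0%), with 1010 at an unadjusted p under 0.05 and a smallest adjusted p of 0.261. With a pseudocount of 5 the gene Slc7a11, a cystine transporter, passed, and without CCR2-/- replicate 1 the haemoglobin gene Hbb-bt passed. Both were named after their values were seen. With 2 samples per genotype, a difference by genotype was thus not detected for any gene in the fit as reported.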

How the data were processed

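Per the labels' protocols, cells were run on the 10x Genomics single cell 3′ v3 assay with antibody tags and hashtags, and per the submitters' processing notes Cell Ranger 3.1 and the mm10 build were used. The limits of the antibody gates and the authors' filters on cells are not given in the sources used here. The values of the brain table deposited by the authors are natural log values of 1 plus a depth-corrected count: turned back, they lay within 2.18e-11 of whole numbers, and in all 5208 cells they summed to the corrected total in the deposited cell descriptions. Raw UMI, antibody tag and hashtag counts per cell, clusters and gates were taken from the cell descriptions deposited by the authors.

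Corrected counts of the kept cells were summed per hashed sample and gate, scaled to the sum's total and turned to log2 with a pseudocount of 1, for genes with at least 20 corrected counts. Gates were compared with limma 3.58.1 (R 4.3.3), with a mean-variance trend and the hashed sample as a block, because both gates come from the same sample. Calls have a Benjamini-Hochberg adjusted p under 0.05. Corrected counts are not raw counts, so no count model was used. Other values came from Python 3.11.15 with NumPy 2.4.6, SciPy 1.17.1 and pandas 2.3.3. On simulated data of 13132 genes the gate comparison recovered 82% of 2-fold and 100% of 4-fold changes. The simulated spread was set beforehand and only the more abundant genes were changed, so these shares may be too high for the real data.

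The named genes are the 12 higher and 12 lower genes whose 95% interval lies farthest from 0 with the same direction in all 4 samples, some gene classes such as ribosomal and haemoglobin genes left out, plus Itgam, Ptprc, Cx3cr1, Ccr2, Cxcl10 and members of each list with the most counts. Genes named outside this rule (Axl, Ptgs2, and in cluster 6 and in the test of genotype, where no gene met it) were chosen after their values were seen. Members and lists were chosen with earlier results of these data known. The minimum of 15 cells per gate for cluster 6, and the requirement that a named cluster's leading genes hold its markers, were chosen after seeing the data. Alternatives were another scaling, pseudocount, filter, hashtag fraction, UMI minimum, thinning, all deposited cells, no block and each sample left out.

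Some genes are not reported here.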

Additional observations from a re-analysis of the deposited data

Results flagged for a closer look

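For 13 of 159 values described, 1 of the 4 samples lay far from the other 3, and chance alone gives such a gap in about 1 of 20 groups. Among the log2 differences between the gates, CCR2+/- replicate 1 was lowest for Tbxas1, at 5.86 against 8.67 to 8.72, lowest for Itgb5, at 2.49 against 3.17 to 3.31, and highest for Rsad2, at -1.61 against -3.20 to -2.96. CCR2-/- replicate 1 was lowest for Ptpro at 4.50, Sall3 at 3.98 and Mlxipl at 4.05, the genes whose CD11b-negative counts all came from that sample, while the other samples lay at 7.90 or above. CCR2+/- replicate 2 was highest for P2ry12 at 5.63, Trem2 at 5.68, Fcgr3 at 4.83 and Retnlg at 1.57, and for the median of Itgam and Ptprc at 4.03 against 2.58 to 2.75. CCR2-/- replicate 2 was lowest for Tnfaip3, at 2.62 against 3.69 to 3.75. The median of the B cell markers was 0.45 in CCR2+/- replicate 1 and -2.40 to -1.91 in the other samples, and that sample had no cell of cluster 5.

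For 3 values the genotypes ran in opposite directions. H2-Aa was higher in CD11b-positive cells of both CCR2+/- samples, at a mean log2 difference of 1.49. In the CCR2-/- samples it was lower at a mean of -0.14, from values of -0.273 and -0.00531, the latter practically no difference. Cd74, the invariant chain of MHC class II, was at 1.51 and -0.44, with an interaction of -1.95 ± 0.25 (limma adjusted p = 0.261). The median of MHC class I genes was 0.24 in CCR2+/- and -0.83 in CCR2-/- samples, and that difference between genotypes was not tested.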

How the results depend on the processing

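Of 1581 values of 113 named genes under alternatives, 1544 kept their direction and their side of the threshold, 29 lost and 6 gained a call, and 2 reversed: Ttr (0.094) and Folr1 (0.24), both at a hashtag fraction of at least 0.8. At that fraction the UMI ratio was 1.02, the antibody tag ratio 0.609, the microglia list's median 5.36 and cluster 1's share of the CD11b-positive gate 55.5%. With at least 1000 UMIs per cell the microglia median was 5.30. The dendritic cell list's median turned to -3.05 with at least 100 counts per gene and to -1.89 with thinned cells. Cells thinned to 1000 corrected counts gave 1698 higher and 1314 lower genes, of fewer genes tested. Leaving out 1 sample in turn gave 2563 to 2740 higher and 3249 to 3510 lower genes, 0 to 1 calls for the interaction with genotype and 0 to 30 within cluster 6, the highest of both without CCR2-/- replicate 1. The interaction gave 1 call with a pseudocount of 5. Without the replicate block the counts were 3145 higher and 3913 lower, 0 for the interaction and 0 within cluster 6, and Nr4a1, Folr1 and H2-Ab1 lost their calls. The cause of these changes was not tested. Fits within clusters at 20 cells per gate were not run, since cluster 6 had 17 in its smallest sum and the other clusters 4 or fewer, and cluster 1, with no CD11b-negative cell, could not be compared. The CD11b-negative gate, with 56 to 105 cells per sample, limits the precision of low genes.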
